A study of Homo sapiens with 2 samples.

Results

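The genes described here encode enzymes that build, remodel, release or burn fatty acids, measured in BE(2)C cells with and without small interfering RNA (siRNA) against MYCN. They were taken by gene symbol: the families ABHD, ACOT, ACSL, ACSS, ACSM, ACSF, ACAD, ELOVL, FADS, LPCAT, AGPAT, GPAT, LPIN, PNPLA, PLA2G and CPT, and 7 single genes of fatty acid synthesis (AACS, FASN, SCD, SCD5, ACACA, ACACB and ACLY). Pseudogenes and hyphenated symbols were left out. The rule matched 83 of the 14812 named genes, of which 7 (the G-patch genes GPATCH1, GPATCH2, GPATCH2L, GPATCH3, GPATCH4 and GPATCH11, and CPTP, a ceramide-1-phosphate carrier) matched by spelling alone and stand in none of the counts below. The remaining 76 genes had 80 rows. ACAD, AGPAT and PLA2G genes, which include the acyl-CoA dehydrogenases and most phospholipases A2, were not analysed here.

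1 culture received MYCN siRNA (MYCN2) and the other non-targeting control siRNA, bought from a different supplier, and each was read on 1 array. BE(2)C is a human neuroblastoma line with amplified MYCN, grown here in DMEM with fetal calf serum. Both cultures were transfected with the same lipid reagent and gave total RNA 36 hours later for Affymetrix Human Gene 2.0 ST arrays. The title of the control siRNA array also carries the word reanalysis, with no explanation, and that of the MYCN siRNA array does not. MYCN RNA was not analysed here, and 1 line and 1 MYCN siRNA limit what the comparison stands for.

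Cells make fatty acids from acetyl-CoA, which ACLY cuts from citrate and ACACA carboxylates to malonyl-CoA, the building unit that FASN joins into palmitate. Elongases and desaturases then lengthen and unsaturate the chain, and acyltransferases and lipins place it in membrane lipids and triglyceride. In the other direction, lipases and thioesterases release free fatty acids from lipids and from acyl-CoA, and carnitine palmitoyltransferases carry long chains into mitochondria for oxidation, a step that malonyl-CoA inhibits.

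All values are RMA log2 values deposited by the authors, and a difference is the value in MYCN siRNA cells minus the value in control siRNA cells. With 1 array on each side there was no replicate and no test across cultures, and this number of arrays sets the precision. The table holds a single kind of spread, that between 2 probe sets of 1 gene, an SD of 0.31 per probe set over 374 pairs, which leaves out labelling, hybridisation and culture. A gene counted as measured when it reached the median of all rows, 4.55 in the MYCN siRNA array and 4.60 in the control siRNA array, in at least 1 of them. Signals are averages over the cells of a culture, so fewer cells that express a gene and less RNA per cell cannot be told apart.

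Of the 76 genes, 63 were measured. The other 13 were ACSL5, ACSL6, ACSM1, ACSM2B, ACSM3, ACSM6, ACSS3, ACOT6, ACOT12, ABHD11, ABHD12B, ELOVL3 and ELOVL7. ABHD1, ELOVL2 and PNPLA5 passed in 1 array only, so their differences partly follow from that filter. The identity of the cells fitted the label: 11 of 12 noradrenergic neuroblastoma markers had a row, and all 11 lay above the array median in both arrays, from TH at 6.53 and 6.47 to GATA2 at 11.0 and 10.7 in MYCN siRNA and control siRNA cells. DBH, the enzyme that makes noradrenaline, had the largest difference among them, at 10.8 in MYCN siRNA cells and 9.32 in control siRNA cells (1.45, 2.73-fold higher), and the median difference of the 11 was 0.16. Of 4 adipocyte and 4 hepatocyte markers with a row, 2 of each lay above the median, with LEP at 3.12 in MYCN siRNA and 3.57 in control siRNA cells and ALB at 3.10 and 3.31. Of 4 Schwann and glial, 3 fibroblast and 4 macrophage markers with a row, 4, 2 and 1 lay above the median in MYCN siRNA cells and 4, 2 and 2 in control siRNA cells. The median differences of the 5 lists of other cell types ran from −0.14 (hepatocyte) to 0.10 (fibroblast), with members of 1 list apart from each other. Of the macrophage markers, CD68, a lysosomal protein, had a difference of 1.74, CSF1R of −0.38 and CD163 of −0.04, and CD14 was identical in both arrays. Of the glial markers, S100B had a difference of 1.02, GFAP of −0.24 and SOX10 of −0.28, and ERBB3 was identical in both arrays. Of the fibroblast markers, DCN, under the median in both arrays, had a difference of 0.75, THY1 of 0.10 and LUM, a matrix protein, of −1.17. The part of other cell types in the differences below was not tested.

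Among the 63 measured lipid genes, 40 (63.5%) were higher and 23 lower in MYCN siRNA cells, against 50.9% higher among all 10592 measured genes. In 13 the level was higher by 1.5-fold or more (20.6%, against 8.81% of all measured genes), and in 4 it was lower by as much (6.35%, against 5.79%). After loess normalization these counts were 14 and 2. A 2-fold threshold was passed upward by 6 genes (9.52%, against 2.21%), namely ABHD4, CPT1C, SCD5, ABHD5, ACSS2 and ABHD2, and none was 2-fold lower, against 1.16% of all measured genes. The median difference of the 63 genes was 0.14, that of all measured genes 0.01. Differences were also more scattered, with an SD of 0.52 against 0.43 over all measured genes, and 41.3% of the lipid genes lay within 1 probe set SD of 0, against 59.9% of all.

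**Figure D1:**
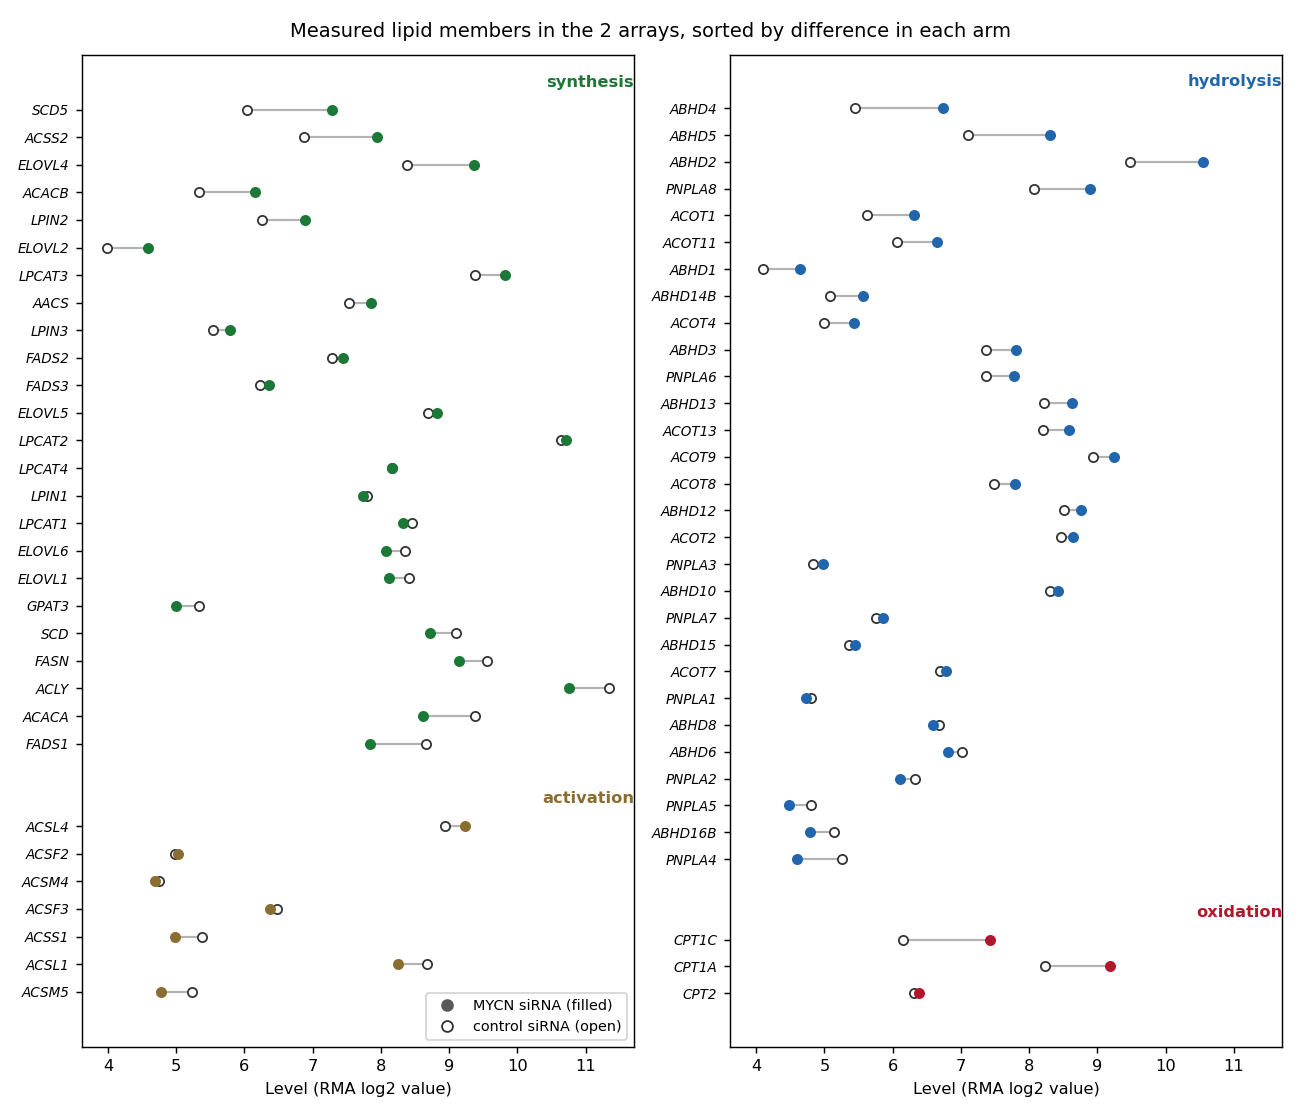
RMA log2 level (horizontal axis) of the 63 measured lipid genes in the MYCN siRNA array (filled points) and the control siRNA array (open points), sorted by difference within synthesis, activation, hydrolysis and oxidation; 1 array per group, so no error bars. In synthesis the filled points lie right of the open ones at the top and left of them at the bottom, while in hydrolysis they lie right of them for 22 of 29 genes.

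Of the 6 genes of acetyl-CoA and fatty acid synthesis, 3 were lower and 3 higher in MYCN siRNA cells. ACLY, the citrate lyase, was at 10.8 in MYCN siRNA cells and 11.3 in control siRNA cells, a difference of −0.59 (1.51-fold lower). ACACA, the cytosolic acetyl-CoA carboxylase that limits fatty acid synthesis, was at 8.61 in MYCN siRNA cells and 9.38 in control siRNA cells, a difference of −0.77 (1.70-fold lower). FASN, the synthase itself, was at 9.14 in MYCN siRNA cells and 9.55 in control siRNA cells (difference −0.41). RNA of the enzymes of all 3 consecutive steps from citrate to palmitate was therefore lower, each by more than the probe set SD of 0.31. That SD leaves out culture, and the steps themselves were not measured.

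The other 3 genes of this group were higher. ACSS2, which makes acetyl-CoA from acetate in the cytosol and nucleus, was at 7.95 in MYCN siRNA cells and 6.88 in control siRNA cells, a difference of 1.07 (2.10-fold higher). ACACB, the carboxylase at the mitochondrial surface whose malonyl-CoA acts on carnitine palmitoyltransferase 1, was at 6.15 in MYCN siRNA cells and 5.33 in control siRNA cells (difference 0.82, 1.77-fold higher). The paralogs ACACA and ACACB thus differed in opposite directions. AACS, which activates the ketone body acetoacetate for lipid synthesis, had a difference of 0.32. The median of the 6 genes, −0.04, describes neither set.

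Desaturases also went both ways. SCD5, a stearoyl-CoA desaturase known from brain, was at 7.28 in MYCN siRNA cells and 6.04 in control siRNA cells, a difference of 1.24 (2.35-fold higher). SCD, its widely expressed paralog, had 2 probe sets, at 11.9 and 5.50 in MYCN siRNA cells and 12.1 and 6.09 in control siRNA cells, with differences of −0.16 and −0.59. Both were lower, but the brighter was within the probe set SD. FADS1, the delta-5 desaturase of polyunsaturated fatty acids, was at 7.85 in MYCN siRNA cells and 8.65 in control siRNA cells, a difference of −0.81 (1.75-fold lower) and the lowest of all 63 measured lipid genes. FADS2, the delta-6 desaturase, and FADS3 stand beside FADS1 on chromosome 11 and had differences of 0.17 and 0.14.

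Among the 5 measured elongases, ELOVL4, which makes very long chain fatty acids of retina, brain and skin, was at 9.37 in MYCN siRNA cells and 8.38 in control siRNA cells, a difference of 0.99 (1.99-fold higher). ELOVL2, an elongase of polyunsaturated fatty acids, had a difference of 0.61 at dim levels of 4.59 in MYCN siRNA cells and 3.98 in control siRNA cells. ELOVL5 was at 0.13, ELOVL6, which extends palmitate, at −0.28, and ELOVL1, an elongase of saturated very long chains, at −0.29, the lowest of the group.

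The 8 genes that acylate glycerolipids or remove their phosphate were the quietest group of synthesis, with 4 higher, 4 lower and a median difference of 0.04. LPIN2, a phosphatidate phosphatase, was at 6.89 in MYCN siRNA cells and 6.26 in control siRNA cells (difference 0.63, 1.55-fold higher), while its paralogs LPIN3 and LPIN1 were at 0.24 and −0.06. LPCAT3, which places polyunsaturated chains into phosphatidylcholine, had a difference of 0.44, and LPCAT2, LPCAT4 and LPCAT1 lay between 0.08 and −0.13. GPAT3, a glycerol-3-phosphate acyltransferase, was lowest at −0.33.

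Acyl-CoA synthetases, which activate fatty acids for synthesis or oxidation alike, are given here without ACSS2, the synthetase described above with acetyl-CoA synthesis, where it was 2.10-fold higher. Of these other 14 genes 7 were measured, and none of the 7 reached 1.5-fold in either direction. Their median difference was −0.11, with 2 higher (28.6%, against 50.9% of all measured genes) and 5 lower. ACSL4, which prefers arachidonic acid, was highest at 0.30 (9.24 in MYCN siRNA cells and 8.94 in control siRNA cells). ACSL1, a long-chain synthetase, was at −0.42 and ACSM5, a medium-chain synthetase dim in both arrays at 4.78 and 5.23, was lowest at −0.45. Without the filter on low values the 14 genes had a median of −0.0065, so a lean to lower values was not seen there.

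Hydrolases taken by the symbol rule were mostly higher. Of 29 measured genes, 22 (75.9%) were higher in MYCN siRNA cells, against 50.9% of all measured genes. The 1.5-fold threshold was passed upward by 5 (17.2%, against 8.81%) and downward by 1 (3.45%, against 5.79%). By at least 2-fold, 3 were higher (10.3%, against 2.21%). The median difference of the 29 genes was 0.31, against 0.01 for all measured genes. ABHD1, which was higher, passed the filter only in the MYCN siRNA array, and PNPLA5, which was lower, only in the control siRNA array. Without the filter on low values the 33 hydrolase genes had a median of 0.18. The 4 genes that this adds, ABHD11, ABHD12B, ACOT6 and ACOT12, lay under the array medians and were lower or, for ACOT12, identical in both arrays. The patatin-like genes did not share the lean, with 4 higher and 4 lower. Nor did 11 measured hydrolysis genes outside the rule, without lipase inhibitors. Of these, 5 were higher (45.5%, against 50.9% of all measured genes).

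The 3 genes 2-fold higher were all alpha/beta hydrolase domain (ABHD) genes. ABHD genes were grouped by symbol, and whether each releases fatty acids was not tested. ABHD4, a lysophospholipase of the N-acylethanolamine pathway, was at 6.74 in MYCN siRNA cells and 5.44 in control siRNA cells, a difference of 1.30 (2.46-fold higher) and the highest of all 63 measured lipid genes. ABHD5, also called CGI-58, which activates the triglyceride lipase PNPLA2, was at 8.31 in MYCN siRNA cells and 7.10 in control siRNA cells (difference 1.21, 2.31-fold higher). ABHD2, a monoacylglycerol lipase, was at 10.5 in MYCN siRNA cells and 9.48 in control siRNA cells (difference 1.07, 2.09-fold higher). Of the 13 measured ABHD genes, 10 were higher (76.9%, against 50.9% of all measured genes) and 3 lower, with a median of 0.40. ABHD6, which hydrolyses the endocannabinoid 2-arachidonoylglycerol, ABHD8 and ABHD16B were the lower ones, at −0.21, −0.09 and −0.35. The filter shapes this count in part. ABHD1, among the 10, passed only in the MYCN siRNA array, and ABHD11 and ABHD12B, left out by the filter, were lower.

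Acyl-CoA thioesterases, which split acyl-CoA into free fatty acid and coenzyme A, were mostly higher by small steps. Of the 8 measured genes, 8 were higher (100%, against 50.9% of all measured genes). Their differences ran from 0.09 for ACOT7, a thioesterase abundant in brain, to 0.69 for ACOT1, a cytosolic form at 6.31 in MYCN siRNA cells and 5.62 in control siRNA cells (1.61-fold higher), with a median of 0.35. ACOT1 and ACOT2 are near-identical neighbours on chromosome 14, so a single value for either is uncertain. ACOT2 was at 0.18. ACOT11 was at 0.58, just under the 1.5-fold threshold, and the peroxisomal ACOT8 and mitochondrial ACOT9 were at 0.31 and 0.32. The filter shapes the count of 8 in part, since it left out ACOT6, at −0.15, and ACOT12, identical in both arrays.

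Patatin-like phospholipases (PNPLA) went both ways, 4 higher and 4 lower with a median of 0.02. PNPLA8, a calcium-independent phospholipase A2 of mitochondria and peroxisomes, was at 8.89 in MYCN siRNA cells and 8.07 in control siRNA cells, a difference of 0.82 (1.77-fold higher). PNPLA4, a retinyl ester hydrolase, was at 4.60 in MYCN siRNA cells and 5.25 in control siRNA cells (difference −0.66, 1.58-fold lower), close to the array median. PNPLA2, the main triglyceride lipase that ABHD5 activates, had 2 probe sets that disagreed, at 6.66 and 5.56 in MYCN siRNA cells and 6.51 and 6.13 in control siRNA cells. Their differences of 0.15 and −0.58 leave its direction unsettled, unlike that of ABHD5.

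**Figure D2:**
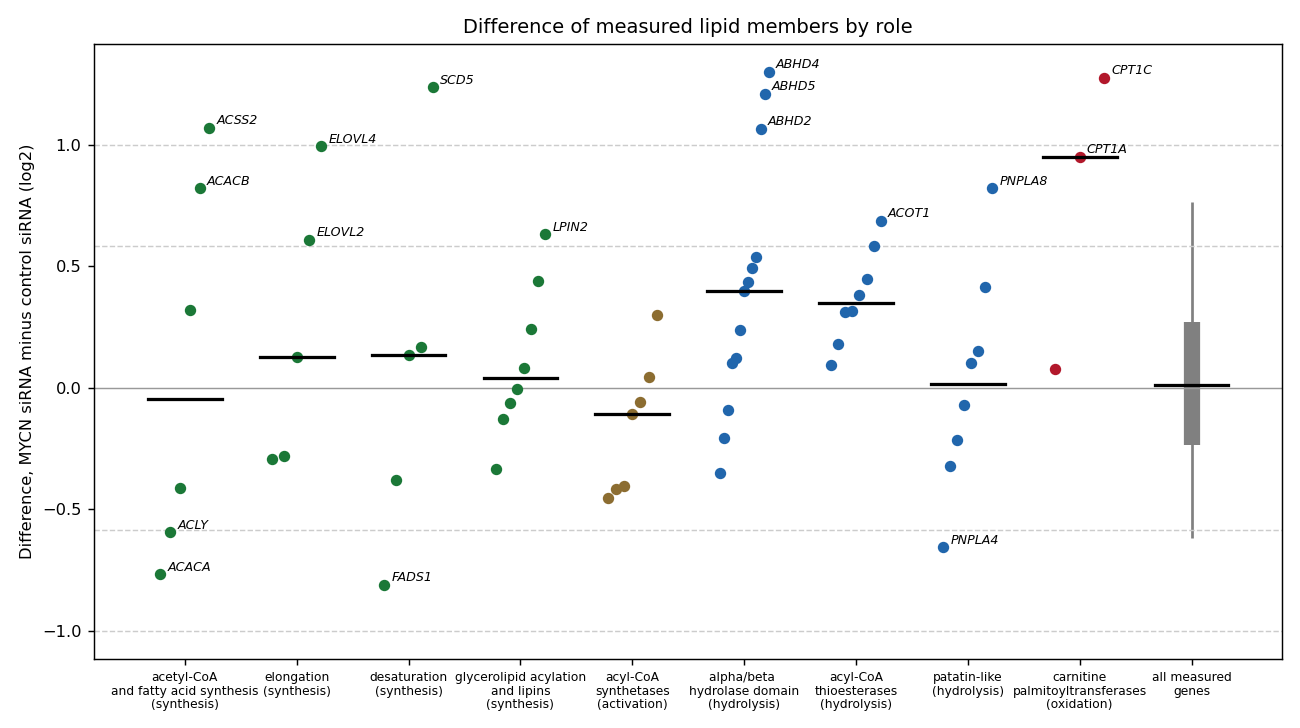
Difference between MYCN siRNA and control siRNA (log2, vertical axis) of each measured lipid gene (points) by role, with the median of each role (black line); the last column gives all 10592 measured genes, with the middle 50% (thick bar, −0.23 to 0.27) and the range from percentile 5 to percentile 95 (thin line, −0.62 to 0.76). Dashed lines mark 1.5-fold and 2-fold. The 8 measured thioesterases all lie above 0. The 6 genes of acetyl-CoA and fatty acid synthesis lie on either side of 0 with none close to it.

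Oxidation is represented by 3 carnitine palmitoyltransferases only. CPT1A, the enzyme that commits long-chain fatty acids to mitochondrial oxidation, was at 9.19 in MYCN siRNA cells and 8.24 in control siRNA cells, a difference of 0.95 (1.93-fold higher). CPT1C, a neuronal paralog in the endoplasmic reticulum with little transferase activity, was at 7.42 in MYCN siRNA cells and 6.14 in control siRNA cells, a difference of 1.28 (2.42-fold higher). CPT2, which acts after CPT1 at the inner mitochondrial membrane, had 2 probe sets at 7.16 and 5.62 in MYCN siRNA cells and 7.06 and 5.56 in control siRNA cells, with differences of 0.10 and 0.06. RNA of CPT1A, for the outer, regulated step, was thus higher, and that of CPT2, for the inner step, was within the probe set SD. Oxidation itself was not measured.

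Set side by side, the median difference was 0.10 for the 24 measured genes of synthesis, 0.31 for the 29 of hydrolysis and 0.95 for the 3 of oxidation. Synthesis minus hydrolysis was −0.21 and synthesis minus oxidation −0.85. Without the filter on low values the gap to hydrolysis was −0.076. The gap to oxidation rests on CPT1A and CPT1C, and CPT1C has little transferase activity. Beside CPT1C, oxidation holds only CPT1A at 0.95 and CPT2 at 0.08. Genes are not replicates, so neither gap was tested. A 1.5-fold threshold was passed upward by 6 of 24 synthesis genes, 5 of 29 hydrolases and 2 of 3 transferases, against 8.81% of all measured genes. ELOVL2, 1 of the 6, passed the filter only in the MYCN siRNA array. Downward it was passed by 3 synthesis genes (FADS1, ACACA and ACLY), 1 hydrolase (PNPLA4) and no transferase, against 5.79% of all measured genes. The arms were not tested against each other on these counts.

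**Figure D3:**
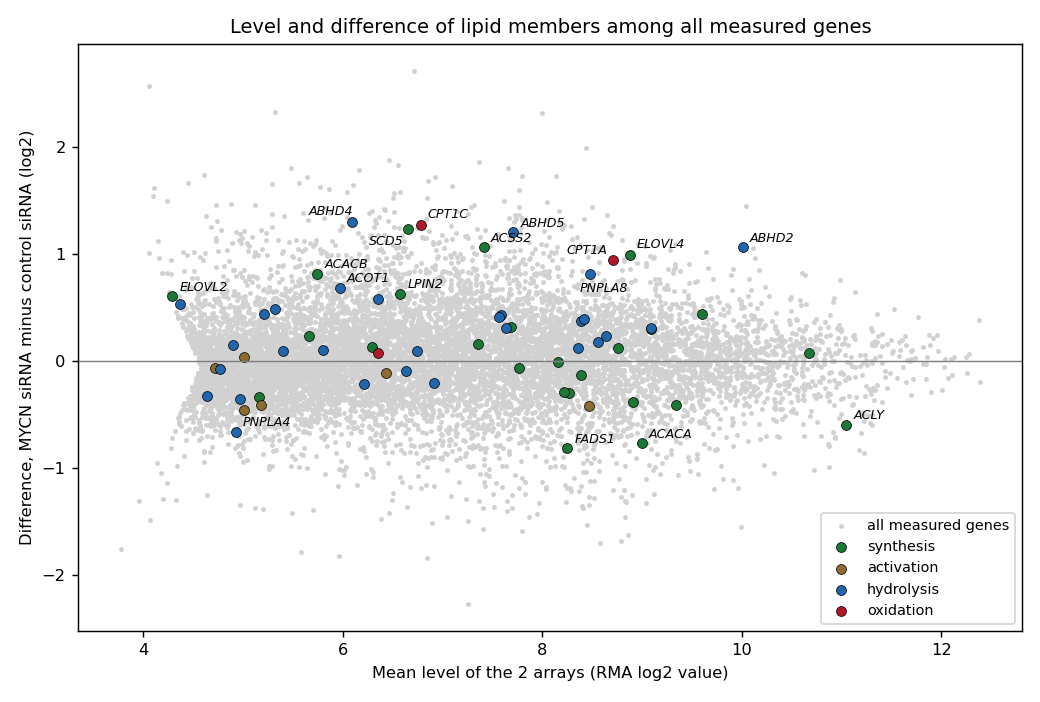
Difference between MYCN siRNA and control siRNA (log2, vertical axis) against the mean RMA log2 level of the 2 arrays (horizontal axis) for all 10592 measured genes (grey) and the 63 lipid genes (coloured by arm). The named genes are those at least 1.5-fold apart; ELOVL2 and PNPLA4 lie among the dim genes at the left, where the grey cloud is cut by the filter.

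MYCN is known to bind DNA at the E-box CACGTG, so the 250 bases before each RefSeq start (GRCh38.p14) were searched for it; the motif reads the same on both strands. RefSeq windows were at hand for 65 of the 76 genes, and for 55 of the 63 measured ones. Of the 89 windows of these 55 genes, 5 held the motif (5.62%), against 956 of 11549 windows of all measured genes (8.28%) and 6.34% of all windows. The 5 were those of ELOVL4, LPIN2, ELOVL5, ABHD8 and ACSF2. None of the 7 windows of FADS1, ACACA, ACLY and PNPLA4 held it, nor any of the 5 windows of the carnitine palmitoyltransferases. A match is a description of the letters and not evidence of binding.

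The windows below, each 250 bases written 5′ to 3′ on the strand of the gene, compare the 2 members with a match that were at least 1.5-fold higher with ELOVL5, which had a match and a difference of 0.13, and with the highest and the lowest lipid gene, which had none. Capitals mark the E-box, which begins 46 bases before the start of ELOVL4, 210 before 1 of the 2 starts of LPIN2 and 211 before that of ELOVL5. They lie at chr6:79947554-79947803 on the minus strand (ELOVL4), chr18:3013145-3013394 on the minus strand (LPIN2), chr6:53348951-53349200 on the minus strand (ELOVL5), chr14:22598050-22598299 on the plus strand (ABHD4) and chr11:61817004-61817253 on the minus strand (FADS1).
ELOVL4: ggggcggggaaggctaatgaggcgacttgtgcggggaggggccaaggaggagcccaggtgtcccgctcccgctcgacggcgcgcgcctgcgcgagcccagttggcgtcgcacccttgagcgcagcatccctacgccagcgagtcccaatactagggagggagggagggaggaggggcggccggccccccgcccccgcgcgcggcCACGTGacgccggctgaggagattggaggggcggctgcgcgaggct
LPIN2: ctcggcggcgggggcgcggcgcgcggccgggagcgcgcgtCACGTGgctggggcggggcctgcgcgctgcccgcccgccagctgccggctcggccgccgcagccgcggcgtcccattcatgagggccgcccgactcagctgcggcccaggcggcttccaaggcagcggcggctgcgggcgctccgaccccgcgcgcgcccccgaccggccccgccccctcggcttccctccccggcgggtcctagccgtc
ELOVL5: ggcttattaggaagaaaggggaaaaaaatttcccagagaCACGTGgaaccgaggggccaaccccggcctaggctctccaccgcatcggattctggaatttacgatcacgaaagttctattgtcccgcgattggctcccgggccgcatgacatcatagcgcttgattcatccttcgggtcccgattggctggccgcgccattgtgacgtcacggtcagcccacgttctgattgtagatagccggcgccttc
ABHD4: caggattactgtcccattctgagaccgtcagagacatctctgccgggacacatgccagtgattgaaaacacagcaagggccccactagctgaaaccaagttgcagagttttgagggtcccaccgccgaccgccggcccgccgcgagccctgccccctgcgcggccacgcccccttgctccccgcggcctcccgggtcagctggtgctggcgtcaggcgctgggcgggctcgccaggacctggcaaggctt
FADS1: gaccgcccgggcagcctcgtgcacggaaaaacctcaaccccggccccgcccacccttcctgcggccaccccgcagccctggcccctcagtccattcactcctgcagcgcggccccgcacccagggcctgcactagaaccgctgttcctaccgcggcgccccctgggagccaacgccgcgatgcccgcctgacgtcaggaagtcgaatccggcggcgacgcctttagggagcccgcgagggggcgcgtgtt

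Other genes of lipid metabolism, listed by role and not by how they differed, went both ways. Of the 48 measured ones, 24 were higher and 24 lower, against 50.9% higher among all measured genes, with a median of −0.01. Past 1.5-fold, 6 were higher (12.5%, against 8.81% of all measured genes) and 2 lower (4.17%, against 5.79%). Among 14 further genes of oxidation, 9 were higher (64.3%, against 50.9% of all measured genes) and 5 lower (median 0.12). CRAT, the carnitine acetyltransferase, was at 8.82 in MYCN siRNA cells and 7.51 in control siRNA cells (difference 1.30, 2.47-fold higher), in the direction of CPT1A. ECI2, an enoyl-CoA isomerase, was at 0.78, and ACAA2, a mitochondrial thiolase, was lowest at −0.35.

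Of 13 further genes of hydrolysis, 5 were higher (38.5%, against 50.9% of all measured genes), with a median of −0.12. They include G0S2 and HILPDA, which inhibit a lipase, and without these the count was 5 of 11 and the median −0.08. CES1, among the lower genes at 4.52 in MYCN siRNA cells and 4.89 in control siRNA cells, passed the filter only in the control siRNA array. FAAH2 and LPL had a row and were left out by the filter, with differences of 0.08 and −0.52, so it removed genes of both directions. PLD2, a phospholipase D, was highest at 0.55. G0S2, which inhibits PNPLA2, was lowest, at 4.83 in MYCN siRNA cells and 5.49 in control siRNA cells (difference −0.66, 1.58-fold lower), and HILPDA, another inhibitor of PNPLA2, was at −0.46. At the RNA level the activator ABHD5 was thus higher and both measured inhibitors of the same lipase lower. The 2 probe sets of PNPLA2 itself disagreed, with differences of 0.15 and −0.58, and lipase activity was not measured.

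Of the 7 measured regulators of lipid synthesis, 3 were higher and 4 lower. SREBF1, which encodes the transcription factor that drives fatty acid synthesis genes, was at 7.44 in MYCN siRNA cells and 6.72 in control siRNA cells (difference 0.72, 1.65-fold higher). Its known target genes in the group of acetyl-CoA and fatty acid synthesis went both ways. Of these, ACSS2 and ACACB were higher and ACLY, ACACA and FASN lower, as given above. Target genes outside that group, such as desaturases and elongases, were not counted here. SREBF2, its cholesterol counterpart, was at −0.22. MLXIPL, which encodes the glucose-responsive factor ChREBP, was lowest at −0.60, at 4.42 in MYCN siRNA cells and 5.01 in control siRNA cells. It passed the filter only in the control siRNA array, but all 7 regulators with a row were measured, so its place does not depend on the filter. CDS2, which makes CDP-diacylglycerol, was the highest of 7 further synthesis genes at 0.99, and MECR, of mitochondrial fatty acid synthesis, the lowest at −0.47. THRSP, another of these genes at −0.19, also passed the filter only in the control siRNA array. Of 7 uptake and storage genes, PLIN2, a lipid droplet coat protein, was highest at 0.73 (5.16 in MYCN siRNA cells and 4.43, under the array median, in control siRNA cells), and FABP5, a fatty acid carrier, was lowest at −0.24.

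**Figure D4:**
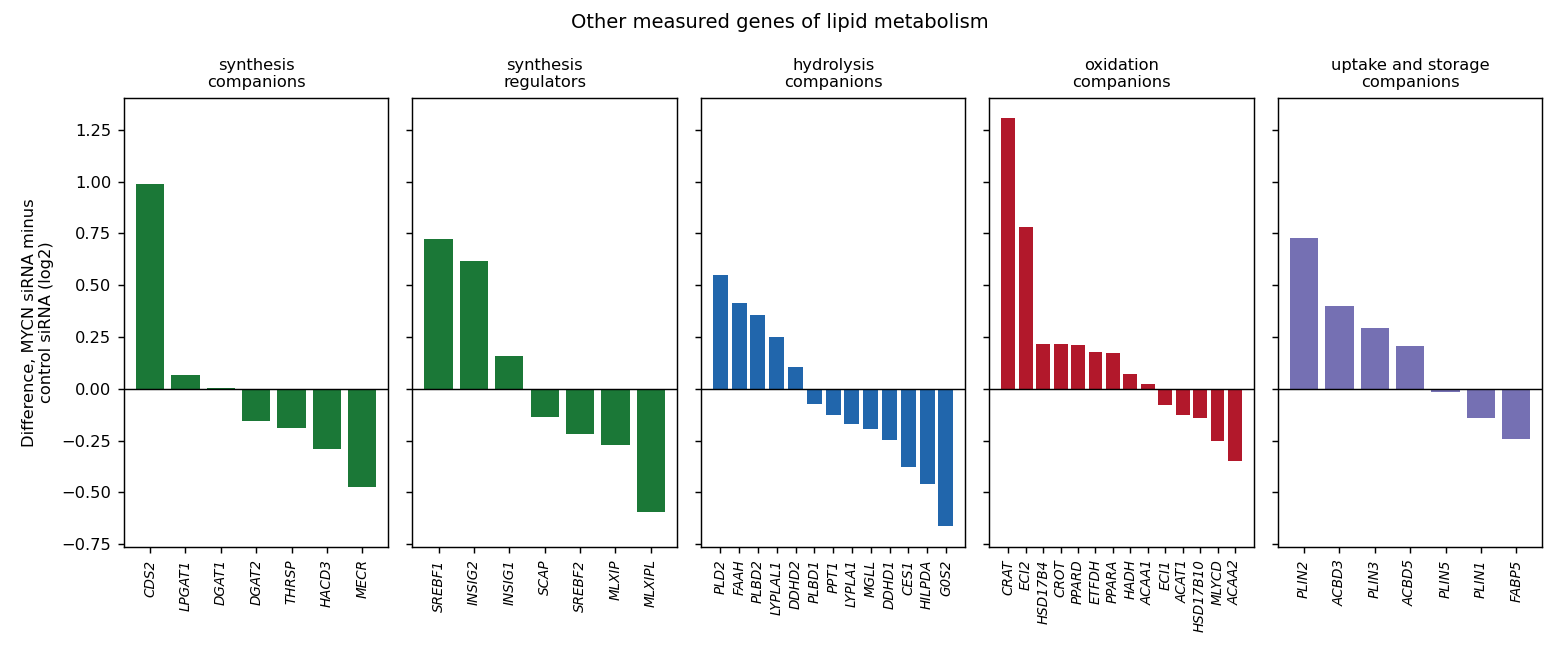
Difference between MYCN siRNA and control siRNA (log2, bars from 0) of 48 measured genes of lipid metabolism outside the symbol rule, in 5 groups by role. CRAT and CDS2 have the highest bars, at 1.30 and 0.99, and G0S2 the lowest, at −0.66.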

How the data were processed

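RNA of 2 BE(2)C cultures was hybridised to 1 array each. The deposited table gives each array a log2 value per probe set, which the authors computed by RMA, per the submitters' processing notes; which software and version, and which arrays were normalized together, is not stated in the labels, nor is what the word reanalysis in the control array's title refers to. RMA equalises distributions, so a change in total messenger RNA per cell is not visible. Of 46255 rows, 1859 held the same value in both arrays, among them 2 rows of ACOT genes.

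Platform annotation named 15835 rows with 1 symbol each, all matched to RefSeq by gene identifier, and left 30420 unnamed here. Rows of 1 gene were averaged, giving 14812 genes. A gene was called measured if its value reached an array's median over all rows in either array (10592 genes). Genes past 1.5-fold and 2-fold were counted. Named were members at least 1.5-fold apart, the highest and lowest of each role, and the main enzymes ACLY, ACACA, FASN, SCD, CPT1A, CPT2 and PNPLA2, with further genes given as values. Members, roles and lists were chosen with earlier results of these data known. Alternatives were median centring, quantile and loess normalization (span 0.3), the brightest probe set, no filter, a filter at the 70th percentile, an offset of 16 on linear values, leaving out genes with near copies or read-through transcripts, and all symbols matched by the rule. Scripts (Python 3.11.15, pandas 2.3.3, statsmodels 0.14.6) were tested on simulated data.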

Additional observations from a re-analysis of the deposited data

How the results depend on the processing

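Under 9 alternatives, 94 of 102 summary values (medians of the arms, gaps between them and counts of members) moved by less than the probe set SD over the square root of the number of genes or, for counts, by less than 1.5 times, and no median changed sign. Part of this was fixed in advance. Median centring shifts all genes alike and keeps the gaps, the filters leave the same 3 oxidation genes, and the brightest probe set touches only genes with several rows. The share of 94 in 102 is therefore no measure of stability. The median of all lipid genes, 0.14, was 0.185 after median centring and 0.21 with the 70th percentile filter, while that of all measured genes was 0.01, 0.06 and 0.05; the excess over all genes was 0.12, 0.12 and 0.16. The hydrolysis median, 0.31, was 0.18 without a filter and 0.38 with the stricter one, and the gap between synthesis and hydrolysis, −0.21, was −0.076 and −0.30. Genes at least 1.5-fold lower numbered 2 after loess, against 4. At least 2-fold lower was 1 (GPATCH4) with all matched symbols, against 0. PNPLA2 turned from −0.21 to 0.15 with its brightest probe set, since its 2 probe sets disagree. With the offset of 16, genes at least 1.5-fold higher numbered 10, against 13. The causes of the other changes were not tested. No paired analysis was possible because each group has 1 array. Oxidation rests on 3 genes, and values near the array medians are not shown to be above background.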

Other observations

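The 7 genes that share letters with the lipid families but encode no lipid enzyme had a median difference of 0.09, with 4 higher and 3 lower in MYCN siRNA cells. GPATCH4, a G-patch domain protein, was at 6.84 in MYCN siRNA cells and 8.01 in control siRNA cells, a difference of −1.16 (2.24-fold lower). This was further from the control than any lipid gene that was lower. CPTP, the ceramide-1-phosphate carrier, was at 6.49 in MYCN siRNA cells and 6.13 in control siRNA cells (difference 0.36), and the other 5 lay between −0.06 and 0.29.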
